A study of Mus musculus with 4 samples.

Results

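Natural killer (NK) cells sorted from AML spleen at day 17 were compared by DNAM-1, positive against negative, with 1 RNA-seq library a side. The comparison covers every protein-coding gene at 5 FPKM or more in the higher of these libraries, which held for 8478 of the 17723 genes listed in any library of the series. FPKM, fragments per kilobase of transcript scaled to library size, allows levels to be compared between genes. The difference of a gene is given as a log2 ratio, DNAM-1+ over DNAM-1-, after adding 1 FPKM to both values, so that a positive ratio is a higher level in DNAM-1+ cells and the gap of a low gene is understated. Of the 8478 genes, 55 (0.649%) were higher in DNAM-1+ cells by 2-fold or more, and 259 (3.05%) were lower by that much. There was no replicate, so no difference below has a replicate check, no test was possible and each ratio describes these libraries alone.

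DNAM-1, the product of Cd226, is an activating receptor of NK and T cells that binds CD155 and CD112, nectin-like proteins found on many tumour cells. The receptors TIGIT and CD96 share ligands with it. NK cells in mouse spleen mature from a CD27-positive stage that still divides and makes cytokines to a CD11b-positive stage with larger cytotoxic stores, and cells can also be divided by DNAM-1.

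All mice were C57BL/6J, 6 to 8 weeks old. AML was an MLL-AF9 leukaemia whose GFP+ cells, taken from leukaemic mice, were transplanted into unirradiated recipients. The 4 groups were DNAM-1+ and DNAM-1- NK cells of AML spleen at day 17 and DNAM-1+ and DNAM-1- NK cells of normal spleen at day 0, each with 1 library. The labels name no other gate, no sort purity and no number of mice behind a library, and the time and the leukaemia differ together between the spleens.

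The libraries listed between 15460 and 16161 genes, and the steps of microRNA values gave an estimated depth of 8900000 to 9500000 fragments. At the depth of the shallower AML library, 5 FPKM on a transcript of 2000 nt was about 88.4 fragments, and the 95% counting interval of a ratio of equal values was 0.43 to either side. Such intervals leave out the spread between mice and cover counting error only. The sort showed in its own gene: Cd226 (NCBI Gene 225825) was at 36.1 FPKM in DNAM-1+ and 0.58 FPKM in DNAM-1- cells (log2 ratio 4.55). NK identity genes were high on both sides. Ncr1, which encodes NKp46, was at 597 and 423 FPKM, Klrb1c, the gene of NK1.1, at 422 and 379 FPKM, and the leukocyte gene Ptprc at 732 and 755 FPKM.

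Most of the transcriptome was at a similar level on both sides. The median ratio over all 8478 genes was 0.01, the quartiles were -0.11 and 0.14, and 7897 genes (93.1%) lay within 1.5-fold. The genes with the most RNA were shared: 9 of the 10 highest were the same in both libraries, among them the chemokine gene Ccl5 (6089 and 5552 FPKM), the granzyme gene Gzma (3947 and 4072 FPKM) and B2m of MHC class I (3960 and 3854 FPKM). The tails were uneven. At 4-fold, 8 genes were higher and 65 lower in DNAM-1+ cells, while at 8-fold there were 4 on each side.

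**Figure D1:**
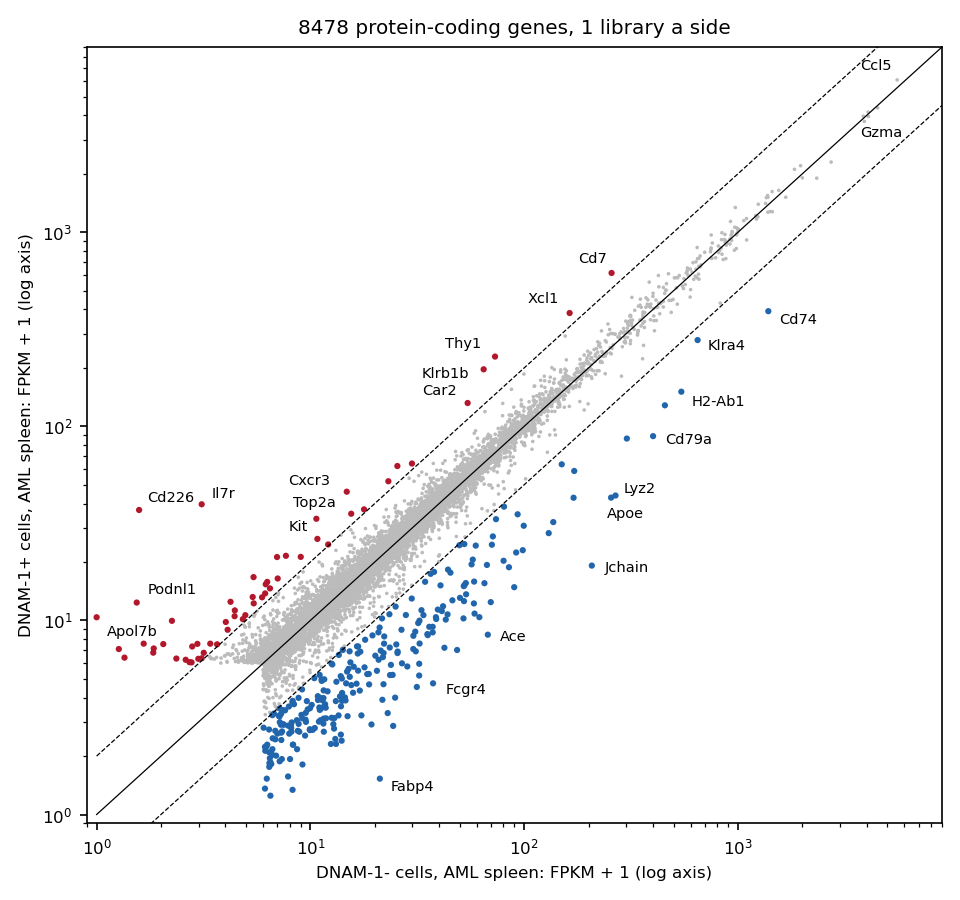
FPKM + 1 of 8478 protein-coding genes in DNAM-1- cells (horizontal) and DNAM-1+ cells (vertical) of AML spleen, both on log axes, 1 point a gene. The solid line marks equal values and the dashed lines a 2-fold difference; 55 genes (red) lie above and 259 (blue) below the band, and Ccl5 and Gzma sit near the solid line.

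The 55 higher genes were mostly of moderate or low level. Of them, 24 were at 5 to 10 FPKM in DNAM-1+ cells and 5 at 100 FPKM or more, namely Cd7, Xcl1, Thy1, Klrb1b and Car2. The half-width of the counting interval had a median of 0.40 over the 55 genes. In 1 gene, Gdpd5 (5.08 against 1.78 FPKM), the half-width (1.28) was wider than the ratio after adding 1 FPKM (1.13). The half-widths are those of ratios without the added 1 FPKM, so the match to the printed ratios is rough for low genes. The genes nearest the 2-fold limit were Cd200r2, Efnb1 and Klri1 inside it (1.04, 1.04 and 1.02) and Impa2, Rpl31-ps12 and Ncaph outside it (0.99, 0.98 and 0.98). The 55 genes are described below in groups by role, which were drawn up after their values were seen.

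Receptors of the cell surface were the largest named group besides cell division, with 11 genes. Thy1, a glycoprotein that marks CD27-positive NK cells and innate lymphoid cells of other kinds, was at 228 FPKM in DNAM-1+ and 72 FPKM in DNAM-1- cells (1.65). Klrb1b, the inhibitory NKR-P1B receptor for the ligand Clr-b, was at 196 and 63.6 FPKM (1.61). Cd7, a surface protein of NK and T cells, reached 616 and 255 FPKM (1.27), the highest level of any gene in the group of 55. These 3 genes were abundant on both sides and higher in DNAM-1+ cells.

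The gene of CD160, a receptor for MHC class I and HVEM, was at 61.4 and 24.5 FPKM (1.29). Klri1, one chain of an NK receptor family near NKG2, was at 23.6 and 11.1 FPKM (1.02), and Adgrg5, an adhesion G protein-coupled receptor, at 20.2 and 5.98 FPKM (1.60). Lag3, an inhibitory receptor known from activated lymphocytes, was at 12.8 and 5.14 FPKM (1.17). Lower still were Icos, a costimulatory receptor (5.81 and 2.17 FPKM; 1.10), and the paralogous receptor genes Cd200r1 (5.43 and 0.35 FPKM; 2.25) and Cd200r2 (5.38 and 2.10 FPKM; 1.04). Cd200r1, which encodes the inhibitory receptor for CD200, was close to absent from DNAM-1- cells, and its counting interval spanned 1.21 to either side.

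The DNAM-1 partners differed little beside Cd226 itself. Cd96 was at 52 and 35.6 FPKM (0.53) and Crtam, a receptor of the same immunoglobulin superfamily branch, at 34.4 and 25.5 FPKM (0.42). Tigit, the inhibitory competitor, was lower in DNAM-1+ cells, at 19.8 and 27.2 FPKM (-0.44). None of these 3 passed 2-fold.

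Il7r (NCBI Gene 16197) had the largest ratio after the sort gene. It encodes the interleukin-7 receptor alpha chain, which few mature splenic NK cells carry and which is known from CD27-positive NK cells and innate lymphoid cells. It was at 38.6 FPKM in DNAM-1+ and 2.10 FPKM in DNAM-1- cells (3.68, counting half-width 0.36), and at 38.5 and 2.06 FPKM in normal spleen, so the level was nearly equal in AML and normal spleen within each subset. Its partner chain Il2rg was at 410.1 and 388 FPKM (0.08), and Il2rb, the shared chain of the IL-2 and IL-15 receptors, at 833 and 643 FPKM (0.37). A list of common gamma chain receptors also held the related receptor genes Il13ra1 and Crlf2, which are not partners of that chain. Of its 8 measured genes, 1 was at least 2-fold higher (Il7r) and the median was 0.04. The only gene at least 2-fold lower was Il13ra1, at 0.76 and 5.42 FPKM (-1.87).

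Kit, the stem cell factor receptor, was at 25.3 and 9.78 FPKM (1.29), and Socs2, a feedback inhibitor induced by STAT5, at 6.55 and 1.05 FPKM (1.88). Another STAT5 target, Cish, was at 5.45 and 2.64 FPKM (0.83), and Pim2, a survival kinase, at 91.1 and 57.4 FPKM (0.66). The other JAK, STAT and SOCS genes lay close to 0: of 21 measured, 1 (Socs2) was past 2-fold higher and 0 past 2-fold lower, with a median of 0.06. Stat5a (17.8 and 17.3 FPKM) and Stat5b (33.8 and 34 FPKM) were level.

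Genes of the CD3 complex were detected in both libraries and were higher in DNAM-1+ cells. Cd3g was at 32.4 and 9.66 FPKM (1.65), Cd3d at 12.2 and 4.94 FPKM (1.15) and Cd3e at 8.95 and 1.25 FPKM (2.14). Trat1, an adaptor of the T cell receptor, was at 6.17 and 0.85 FPKM (1.95). The zeta chain gene Cd247, which NK receptors use as well, was level, at 173 and 163 FPKM (0.09).

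All 13 measured genes of the CD3 and T cell receptor signalling list were above 0, 5 past 2-fold, with a median of 0.80 against 0.01 for all genes. Over all 21 listed genes above 0 FPKM, 19 were higher and the median was 0.45. The proximal kinases named here differed less than the CD3 chains, with Lck at 336 and 245 FPKM (0.45) and Zap70 at 96.6 and 74.6 FPKM (0.37). Markers of T cells were checked beside this result. The 17 listed T cell markers summed to 296 FPKM in DNAM-1+ and 169.6 FPKM in DNAM-1- cells, with Tcf7 the largest part (185 and 98.7 FPKM). Defining genes of conventional T cells were low on both sides: Cd4 was at 1.38 and 0.75 FPKM, Cd8a at 2.88 and 2.92 FPKM, Cd8b1 at 0.67 and 2.11 FPKM, Cd5 at 0.53 and 0.27 FPKM and Cd6 at 0.61 and 0.11 FPKM. The part of T cells in the CD3 result was not tested.

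A group of 5 genes held 4 ligands and 1 chemokine receptor. Xcl1 (NCBI Gene 16963), the chemokine that draws XCR1-positive dendritic cells, was at 382 and 162 FPKM (1.23). Cxcr3, the receptor for interferon-induced chemokines, was at 45 and 13.8 FPKM (1.64). Tnfsf10, the death ligand TRAIL, was at 11.5 and 3.23 FPKM (1.56), the Notch ligand gene Dll1 at 6.34 and 1.80 FPKM (1.39) and the ephrin gene Efnb1 at 6.53 and 2.66 FPKM (1.04). For all 5 the ratio was larger in AML than in normal spleen, where Xcl1 was at 284 and 167 FPKM (0.76) and Cxcr3 at 41 and 18.5 FPKM (1.10). For Dll1, Tnfsf10 and Efnb1 the ratios of the spleens differed by only 0.07, 0.18 and 0.21, less than the counting half-width of each.

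Among the 12 measured cytokine and chemokine genes of NK cells, Xcl1 alone was at least 2-fold higher, and Ccl9 (6.04 and 13.2 FPKM) and Ccl6 (4.24 and 23.2 FPKM), both made by myeloid cells, were at least 2-fold lower. Flt3l, a growth factor of dendritic cells, was at 55.6 and 33.9 FPKM (0.70). Ifng was at 81.9 and 70 FPKM (0.22), Ccl3 at 256 and 287 FPKM (-0.16) and Ccl4 at 152 and 134 FPKM (0.18), so these inflammatory cytokines lay within 1.5-fold. Other chemokine receptors were level or lower in DNAM-1+ cells. Ccr2 was at 113 and 86.6 FPKM (0.38) and Cx3cr1 at 43.8 and 53.1 FPKM (-0.27), and 3 receptors known from B cells and naive lymphocytes, Ccr6, Ccr7 and Cxcr5, were at least 2-fold lower (-1.53, -1.60 and -1.75).

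The promoters of Xcl1 and Cd160 are shown because both genes were higher in DNAM-1+ cells and both hold TCACACC, the core letters of the T-box factors that direct NK maturation. Each line gives the 250 bases before the start of the gene (RefSeq, GRCm38.p6), read 5′ to 3′ on the gene's strand, with the motif or its reverse complement in capitals. The Xcl1 window is chr1:164935523-164935772 on the minus strand and the Cd160 window chr3:96814522-96814771 on the minus strand.
Xcl1: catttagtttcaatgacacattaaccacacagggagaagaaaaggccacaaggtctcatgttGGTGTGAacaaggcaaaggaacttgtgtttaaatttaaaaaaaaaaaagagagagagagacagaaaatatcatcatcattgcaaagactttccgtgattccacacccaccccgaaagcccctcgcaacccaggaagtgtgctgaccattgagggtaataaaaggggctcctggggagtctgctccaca
Cd160: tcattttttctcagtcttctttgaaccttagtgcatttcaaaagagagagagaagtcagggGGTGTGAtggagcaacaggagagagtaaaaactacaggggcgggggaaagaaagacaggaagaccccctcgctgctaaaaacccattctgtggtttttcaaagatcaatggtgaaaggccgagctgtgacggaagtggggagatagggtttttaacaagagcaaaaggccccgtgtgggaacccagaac
The letters lie on the opposite strand in both windows, beginning 188 and 189 bases before the start. Windows were found for 39 of the 55 higher genes, 202 of the 259 lower genes and 6939 of all 8478 genes, and a gene can have more than 1. TCACACC, on either strand, was in 8.70% of the 46 windows of higher genes (4 windows), 3.92% of the 255 windows of lower genes and 2.70% of all 8849 windows. A match is a run of letters and not a measured binding site. The motifs described in the text and the promoters shown were picked after the shares of 22 motifs had been seen. Where a gene had more than 1 window, the window shown here or below was the one holding more of that gene's motifs. The others, all searched on both strands, were the octamer ATGCAAAT, the TCF letters CTTTGAT with the longer homology form TTCAAAG, the RUNX letters AAACCACA, the E2F forms TTTCGCGC as well as TTTGGCGC, the C/EBP and ATF composite TGATGCAA, the AP-1 forms GATGAGTCA as well as TGACTCA, the E-box CACGTG together with the E-protein form CAGATG, the STAT form TTCCNGGAA, the ETS forms GGAAGTGA as well as GAGGAA, the letters GGGAAAG, and 2 interferon response elements with 1 NF-kappaB site. Some overlap: GAGGAA lies within GAGGAAGT and TGACTCA within GATGAGTCA and TTTGAA within TTCAAAG in reverse complement.

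Adhesion genes added 3 members. Emb, which encodes embigin, was at 51.1 and 22.1 FPKM (1.17), the integrin beta 3 gene Itgb3 at 8.81 and 3.02 FPKM (1.29) and Itga1, the collagen-binding CD49a chain that marks tissue-resident lymphocytes, at 5.34 and 1.99 FPKM (1.08). The other integrins were nearer to level. Itga2, the CD49b chain used to identify NK cells, was at 65.1 and 67.3 FPKM (-0.05), Itgb7 at 180.2 and 123 FPKM (0.54) and Itgam, the CD11b chain, at 184 and 215 FPKM (-0.22). Of 21 integrin and selectin genes, 2 were past 2-fold higher and 0 past 2-fold lower, with a median of 0.11.

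Only 1 transcription factor gene was at least 2-fold higher among the 33 measured on the list of NK transcription factors: Ikzf2, the Ikaros family member Helios, at 5.82 and 0.84 FPKM (1.89). Tcf7, the gene of TCF-1, came next at 185 and 98.7 FPKM (0.90), then Id2, needed for NK cell development, at 460.4 and 318 FPKM (0.53). The T-box pair split in sign: Tbx21 was at 194 and 147 FPKM (0.40) and Eomes at 212 and 231 FPKM (-0.12). Klf4, Irf4 and Id3, which B or myeloid cells also express, were at least 2-fold lower (-1.70, -1.45 and -1.15). The median of the list was -0.03.

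Stage genes of NK maturation were counted from lists. Of 23 genes of the CD27-positive stage, 22 were measured at 5 FPKM or more, with 9 past 2-fold higher, 2 past 2-fold lower (Id3 and Ccr7) and a median of 0.79. The 9 were Il7r, Cd3e, Trat1, Socs2, Thy1, Cxcr3, Kit, Xcl1 and Emb, each described above. Several are counted on other lists too, such as Cd3e and Trat1 with the CD3 genes and Il7r with the ILC1 genes. The lists were chosen with earlier results of these data known, so the counts describe these libraries only. Cd27 itself was at 63.4 and 36.5 FPKM (0.78) and Cd28 at 13.7 and 7.42 FPKM (0.80). Cd69 was slightly lower (-0.22).

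The CD11b-positive mature stage showed no gene past 2-fold in either direction among 21 measured, and 16 of the 21 were below 0 (median -0.13). The chymase gene Cma1 was furthest, at 129.5 and 198 FPKM (-0.61), followed by Serpinb9b, Khdc1a and Entpd1 (-0.48, -0.43 and -0.41). Klrg1, the maturation receptor, was level at 134 and 131 FPKM (0.03). Genes of ILC1 and tissue residency had a median of 0.57 over 12 measured genes, with 5 past 2-fold higher (Il7r, Cd200r1, Ikzf2, Tnfsf10 and Itga1) and 1 past 2-fold lower (Ccr6). Over all 8478 genes 0.649% were past 2-fold higher. Each of the 5 reached 5 FPKM only in the DNAM-1+ library, so the limit itself favours higher ratios in this count. Over all 18 listed genes above 0 FPKM the median was 0.44, with 14 higher and 4 lower. Of the 16 NK lineage genes, 1 was past 2-fold (Cd7) and the median was 0.26, so lineage genes were similar where several stage genes were not.

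**Figure D2:**
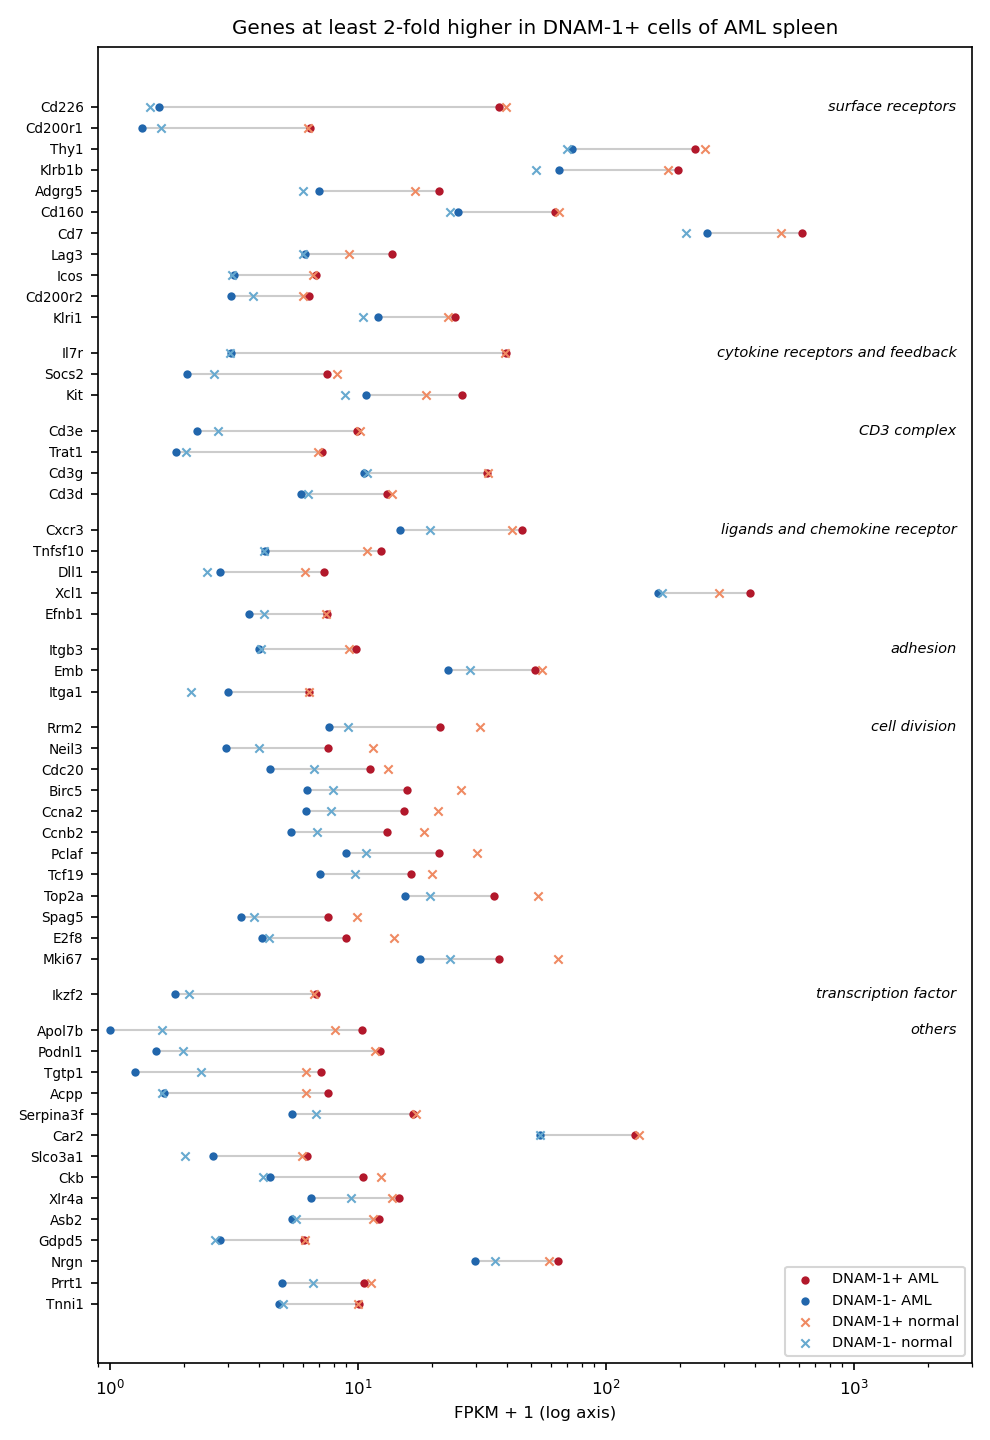
FPKM + 1 (log axis) of 53 of the 55 genes past 2-fold higher in the DNAM-1+ AML library, grouped by role; filled points are the AML libraries, crosses the normal libraries, red and orange DNAM-1+, blue DNAM-1-. Cd226 and Il7r show the widest gaps, and for most genes of the cell division group the DNAM-1+ normal cross lies to the right of the DNAM-1+ AML point.

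Cytotoxic genes did not separate the subsets. Of 17 measured genes of the cytotoxic granule, 0 were past 2-fold in either direction, and the median was -0.01 (0.03 without the 5 FPKM limit). Prf1, the gene of perforin, was at 571 and 619.9 FPKM (-0.12), Gzmb at 425 and 519 FPKM (-0.29) and Gzmk, a granzyme of less mature cells, at 14.2 and 10.4 FPKM (0.41). Fasl was at 78.5 and 76 FPKM (0.05), and the activating receptor adaptors Tyrobp (989 and 937 FPKM) and Hcst (93.8 and 58.2 FPKM; 0.68) were expressed on both sides. The SLAM family (6 measured genes) and the GIMAP family of lymphocyte GTPases (8 measured genes) had 0 genes past 2-fold, with medians of 0.13 and 0.17.

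Lectin-like receptors of the NK gene complex varied among themselves. Besides Klrb1b and Klri1, Klrc1, which encodes the inhibitory NKG2A chain, was at 291 and 155 FPKM (0.91). Its activating relative Klrc2 was lower in DNAM-1+ cells, at 260.2 and 361 FPKM (-0.47), while their shared partner Klrd1 (CD94) was at 448 and 378 FPKM (0.24). The Ly49 receptors, which read MHC class I, were level or lower: 9 of 10 measured genes were below 0, with a median of -0.32. Klra4 was at 277 and 646 FPKM (-1.22), Klra8, the Ly49H receptor gene, at 430.4 and 825 FPKM (-0.94) and Klra9 at 350.4 and 313 FPKM (0.16). Klra genes are close copies that can share reads, so the value of any single one is uncertain.

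Inhibitory and checkpoint receptors went in both directions. Of 16 measured, 3 passed 2-fold upwards (Cd200r1, Cd160 and Lag3) and 6 downwards: Ceacam1 (2.90 and 20.7 FPKM), Btla (8.27 and 36.3 FPKM), Pirb (7.75 and 29.9 FPKM), Siglecg (10.4 and 38.4 FPKM), Pilra (4.45 and 13.8 FPKM) and Havcr2 (1.92 and 6.46 FPKM). Several of the 6 are known from B cells or myeloid cells, whose markers are given below.

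Genes of cell division were higher in the DNAM-1+ library. A group of 13 of the 55 higher genes serves DNA replication, repair or mitosis, from Rrm2 at 20.5 and 6.68 FPKM (1.49), the small subunit of ribonucleotide reductase, to Mki67, the proliferation marker Ki-67, at 36.3 and 16.8 FPKM (1.07). Between them were Cdc20, an activator of the anaphase-promoting complex (10.3 and 3.43 FPKM; 1.35), Birc5, survivin of the chromosomal passenger complex (14.8 and 5.28 FPKM; 1.33), and the cyclin genes Ccna2 (14.3 and 5.18 FPKM; 1.31) and Ccnb2 (12.2 and 4.37 FPKM; 1.30). Also in the group were, among others, Pclaf, a PCNA-binding factor (1.24), Top2a, the topoisomerase of dividing cells (34.5 and 14.5 FPKM; 1.19), the spindle gene Spag5 (1.16), the repair gene Neil3 (1.35), Tcf19 (1.23) and the repressor gene E2f8 (1.13).

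The list of G2 and mitosis genes shared the direction throughout. Of 41 genes, 27 reached 5 FPKM; all 27 were above 0, 21 were at least 1.5-fold and 6 at least 2-fold higher, and the median was 0.78. Without the 5 FPKM limit all 41 were higher in DNAM-1+ cells, with the same median. Of 31 measured S phase genes, 30 were above 0 and 2 past 2-fold, Rrm2 among them, with a median of 0.41; the replicative helicase genes Mcm2 to Mcm7 had ratios between 0.28 and 0.50. Cell cycle brakes did not share this. Of 12, 0 were past 2-fold and the median was -0.01, with Cdkn1b at 76.1 and 81.4 FPKM and Cdkn1a, the gene of p21, at 4.03 and 7.30 FPKM (-0.72).

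The division gap was smaller in AML than in normal spleen, where 17 of the 27 G2 and mitosis genes were at least 2-fold higher and the median ratio was 1.09. In 25 of the 27 the AML ratio was the smaller, the exceptions being Cdc20 (1.35 in AML and 1.00 in normal spleen) and Mad2l1 (0.63 and 0.59). The median level of the list was 14.9 FPKM in DNAM-1+ and 5.88 FPKM in DNAM-1- cells for normal spleen, and 10.1 and 5.28 FPKM in AML spleen. The list median was thus lower in AML spleen on the DNAM-1+ side and slightly lower on the DNAM-1- side. Gene by gene, the G2 and mitosis genes past 2-fold were each lower in AML spleen in DNAM-1- cells too. Among them in DNAM-1- cells, Mki67 was at 22.7 FPKM in normal and 16.8 FPKM in AML spleen, Top2a at 18.6 and 14.5 FPKM and Cdc20 at 5.67 and 3.43 FPKM. For the S phase list both levels were lower in AML spleen, at 14.1 and 10.8 FPKM against 18.4 and 13.3 FPKM in normal spleen. The difference between spleens was not tested, and leukaemia or progenitor markers, whose part in it was not tested, summed to 59.9 and 58.1 FPKM in the AML libraries and 51.8 and 56.5 FPKM in the normal ones. Kit, Myb and Mef2c, which lymphocytes also express, were the largest members of these sums. Markers at low level are given below for both spleens.

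Promoters of Ccnb2 and Top2a are shown for the shared letters of the mitotic genes. TTTGAA is the cell cycle homology region bound by the DREAM complex, and CCAAT the NF-Y box, capitals as above. The windows are chr9:70421555-70421804 on the minus strand for Ccnb2 and chr11:99024190-99024439 on the minus strand for Top2a (RefSeq, GRCm38.p6).
Ccnb2: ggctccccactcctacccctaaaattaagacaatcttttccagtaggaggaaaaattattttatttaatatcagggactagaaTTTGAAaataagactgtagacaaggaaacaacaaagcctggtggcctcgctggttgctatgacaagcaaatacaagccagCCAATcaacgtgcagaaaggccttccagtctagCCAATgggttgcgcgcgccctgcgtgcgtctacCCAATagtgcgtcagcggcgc
Top2a: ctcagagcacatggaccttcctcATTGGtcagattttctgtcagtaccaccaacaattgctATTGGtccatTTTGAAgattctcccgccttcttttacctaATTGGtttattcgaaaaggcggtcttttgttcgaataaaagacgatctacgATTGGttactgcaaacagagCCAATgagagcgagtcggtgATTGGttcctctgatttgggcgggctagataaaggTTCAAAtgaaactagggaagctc
In Ccnb2 the CCAAT copies begin 87, 54 and 21 bases before the start, all on the gene's strand. Of the 23 windows of G2 and mitosis genes (22 of 27 genes), 73.9% held CCAAT and 34.8% TTTGAA, against 34.8% and 10.7% of all 8849 windows. Over the 55 higher genes as a whole CCAAT was in 32.6% and TTTGAA in 19.6% of windows. These shares describe letters in a window and were not set against a measured factor.

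The remaining 15 higher genes had no shared role. Apol7b, an apolipoprotein L gene, was at 9.38 FPKM in DNAM-1+ cells and listed at 0 in DNAM-1- cells, so no fold is given. Podnl1, a leucine-rich repeat protein of the extracellular matrix, was at 11.4 and 0.54 FPKM (3) and the T cell-specific GTPase gene Tgtp1 at 6.12 and 0.27 FPKM (2.49), with a counting half-width of 2.17. Car2, a carbonic anhydrase also known from erythroid cells, was at 131 and 53.4 FPKM (1.28); the other erythroid markers were less abundant and went both ways, with Hba-a1 at 6.84 and 11.1 FPKM, Hbb-bt at 3.63 and 1.89 FPKM, Tfrc at 5.22 and 5.07 FPKM, Hba-a2 at 3.19 FPKM in DNAM-1+ and listed at 0 in DNAM-1- cells, Alas2 at 0.11 and 0.63 FPKM and Hbb-b1 listed at 0 in both. Nrgn, a calmodulin-binding protein, was at 63.3 and 28.9 FPKM (1.11) and Serpina3f, a serine protease inhibitor, at 15.7 and 4.42 FPKM (1.62). Others were Acpp, Slco3a1, Ckb, Xlr4a, Asb2, Gdpd5, Prrt1 and Tnni1, with ratios between 1.07 and 2.19.

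The 259 lower genes were counted over the same lists. Of them, 47 (18.1%) stood on a list of markers of other cell types, against 6 (10.9%) of the 55 higher genes and 92 (1.09%) of all 8478. The B cell or plasma cell lists held 21 (8.11%) of the lower, 0 of the higher and 26 (0.307%) of all genes. The myeloid lists held 23 (8.88%) of the lower, 0 of the higher and 47 (0.554%) of all genes. The S phase and mitosis lists held 0 of the lower, 8 (14.5%) of the higher and 58 (0.684%) of all genes. Of the lower genes, 14 were at 100 FPKM or more in DNAM-1- cells, led by Cd74 at 391 and 1385 FPKM (-1.82), the invariant chain of MHC class II. The genes nearest the limit were Ccl9, Myo5a and Adam19 inside it (-1.01, -1.03 and -1.03) and Adrb1, Fgr and P2rx4 outside it (each -0.99).

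B cell genes were lower in DNAM-1+ cells as a block. Of 18 measured B cell markers, 17 were at least 2-fold lower, and leaving out Cd37, which other leukocytes share, the 17 lay between -2.21 and -1.48. Cd79a, a chain of the B cell receptor, was at 88 and 399.7 FPKM (-2.17), Ms4a1, the gene of CD20, at 17.8 and 83.8 FPKM (-2.17) and the lineage factor Pax5 at 12.1 and 49.1 FPKM (-1.94). The 18 markers summed to 510.1 FPKM in DNAM-1+ and 1572 FPKM in DNAM-1- cells, and Ighm and Ighd, the heavy chain genes, were listed at 0 in all libraries. Since other B cell genes were abundant, that 0 may mean that these genes were not counted, and it is not read as absence. Jchain, the joining chain of plasma cells, was at 18.2 and 206 FPKM (-3.43), and Mzb1 and Pou2af1 were lower as well (-2.17 and -2.10), whereas Xbp1 (29 and 43 FPKM; -0.55) and Prdm1 (21.8 and 23.4 FPKM; -0.10) lay within 2-fold.

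MHC class II genes were lower together with these markers. Of 10 measured, 9 were at least 2-fold lower, with a median of -1.81. H2-Ab1 was at 149.8 and 542 FPKM (-1.85), H2-Aa at 127 and 454 FPKM (-1.83) and Ciita, the class II transactivator, at 5.99 and 20.3 FPKM (-1.61). H2-Oa was the exception (-0.97). MHC class I genes were level by contrast: of 18, 0 were past 2-fold and the median was 0.13. The Fc receptor list followed class II, with 7 of 10 measured genes at least 2-fold lower. Fcgr3, the CD16 gene of NK cells, was not among them (58.3 and 60.9 FPKM; -0.06), nor was the signalling chain Fcer1g (738 and 785 FPKM; -0.09). Fcer2a and Fcmr of B cells (-1.98 and -2.21) and Fcgr4 of monocytes (-2.98) were.

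Of the 30 lowest genes, passing over 2 with predicted names only, 9 stood on a list of monocyte, macrophage, neutrophil or dendritic cell markers. The lowest ratio was that of Fabp4, a fatty acid-binding protein of macrophages and fat cells, at 0.53 and 20.1 FPKM (-3.79). Genes of the non-classical monocyte were also among the 30, with Ace at 7.44 and 66.6 FPKM (-3), Fcgr4 at 3.74 and 36.5 FPKM (-2.98), Treml4 at 3.54 and 30.5 FPKM (-2.79), Ear2 at 6.04 and 47.5 FPKM (-2.79), Cd300e at 1.91 and 18.3 FPKM (-2.73) and Adgre4 at 3 and 23.9 FPKM (-2.64). Each of these genes was below 100 FPKM in DNAM-1- cells. Of the 15 measured non-classical monocyte markers, 8 were at least 2-fold lower. Another 3, Pglyrp1, Spn and Itgal, were slightly above 0 (0.08, 0.01 and 0.13).

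General myeloid genes mostly had the same direction. Lyz2, the lysozyme gene, was at 41.9 and 254 FPKM (-2.57), Apoe, the lipid carrier of macrophages, at 43 and 266 FPKM (-2.60), the NADPH oxidase gene Cybb at 9.39 and 60.7 FPKM (-2.57), Csf1r, the receptor of macrophage colony-stimulating factor, at 9.84 and 57.6 FPKM (-2.43) and Spi1, the myeloid and B cell factor PU.1, at 9.24 and 51 FPKM (-2.34). Genes of classical monocytes that NK cells also express were closer to level, with Ly6c2 at 188 and 192 FPKM (-0.04) and Ccr2 above 0. Of 10 measured classical monocyte markers, 6 were at least 2-fold lower and 2 above 0, Ccr2 and S100a4 (57.1 and 32.2 FPKM, log2 ratio 0.81). The macrophage markers summed to 93.4 and 396 FPKM, of which Apoe alone made 43 and 266 FPKM. All 8 measured macrophage markers were below 0, but 4 of them passed 2-fold and the nearest to level was at -0.70. The neutrophil markers summed to 109 and 185 FPKM. Among the neutrophil genes, S100a9 was at 23.7 and 51.5 FPKM, Ly6g at 2.16 and 2.57 FPKM and Elane at 0.24 and 0.50 FPKM. Among macrophage genes, Hmox1, which degrades haem, was at 7.37 and 18.5 FPKM (-1.22), Vcam1 at 3.53 and 7.82 FPKM (-0.96), Spic, a factor of red pulp macrophages, at 1.14 and 4.01 FPKM and Marco at 0.22 and 0.73 FPKM.

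The lowest 30 also held genes of other kinds and families with several members there. Krt80, a keratin, was at 1.86 and 23.4 FPKM (-3.09) and Nupr1, a stress-induced nuclear protein, at 2.33 and 22 FPKM (-2.79). Ifitm3 (13.8 and 88.8 FPKM; -2.60) and Ifitm2 (11.4 and 68.8 FPKM; -2.49), which block viral entry, are close paralogs that can share reads. Families known from myeloid cells were picked after the values were seen. All 6 measured genes of the Toll-like receptor and Cd180 group (-2.34 to -1.48), 5 of 7 CD300 genes, 4 of 4 SIRP genes and 4 of 4 colony-stimulating factor receptors, with both measured Clec4 lectin genes, were at least 2-fold lower. Over all 8478 genes that share was 3.05%. In any library these families had 15, 11, 4, 5 and 10 genes listed, in the same order. Many of the measured ones reached 5 FPKM only in DNAM-1- cells, so the limit itself favours lower ratios in these counts. Other families were mixed: 2 of 6 Ms4a genes (-2.17 to 0.53) and 3 of 6 NADPH oxidase genes (-2.57 to 0.13) passed 2-fold. Beside them stood Clec4a3 (-2.63), Sirpb1b (-2.62), Lst1 (-2.55), the iron transporter gene Slc11a1 (-2.54), Cd300ld (-2.51), Ceacam1 (-2.48), Cd300ld3 (-2.43), Apoc2 (-2.43), Sirpb1c (-2.42), Cd300c2 (-2.42), Tlr13 (-2.34), Pparg (-2.32) and Clec4a1 (-2.29).

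The promoter of Fcgr4 is shown because the gene was among the 5 lowest and holds GAGGAAGT, letters bound by PU.1, 24 bases before its start on the opposite strand (chr1:171018676-171018925, plus strand, RefSeq, GRCm38.p6, capitals as above).
Fcgr4: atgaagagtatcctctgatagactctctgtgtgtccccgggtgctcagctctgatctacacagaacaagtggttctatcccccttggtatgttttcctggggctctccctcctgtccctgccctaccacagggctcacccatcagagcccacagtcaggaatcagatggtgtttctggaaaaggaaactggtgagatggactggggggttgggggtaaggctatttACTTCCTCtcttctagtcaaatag
GAGGAAGT was in 6.28% of the 255 windows of lower genes (16 windows), in 2.17% of those of higher genes and in 2.85% of all windows. The shorter form GAGGAA did not separate the sides, with 37.65% of windows of lower genes, 39.13% of higher genes and 23.08% of all windows.

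In bulk libraries such as these, fewer cells of a type and less RNA per cell cannot be told apart. The lower B cell, MHC class II and myeloid genes therefore stand beside the summed markers: 1572 against 510.1 FPKM for B cells, 468 against 166 FPKM for plasma cells, 1232 against 837 FPKM for classical monocytes, 1534 against 1190 FPKM for non-classical monocytes and 645 against 487 FPKM for dendritic cells, each DNAM-1- first. The monocyte and dendritic cell sums are made up in large part of genes that NK cells express, such as Spn, Itgal, Irf8 and Itgax. The part of each cell type in the lower genes was not tested. Of the 259 genes, 151 stood on no list.

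**Figure D3:**
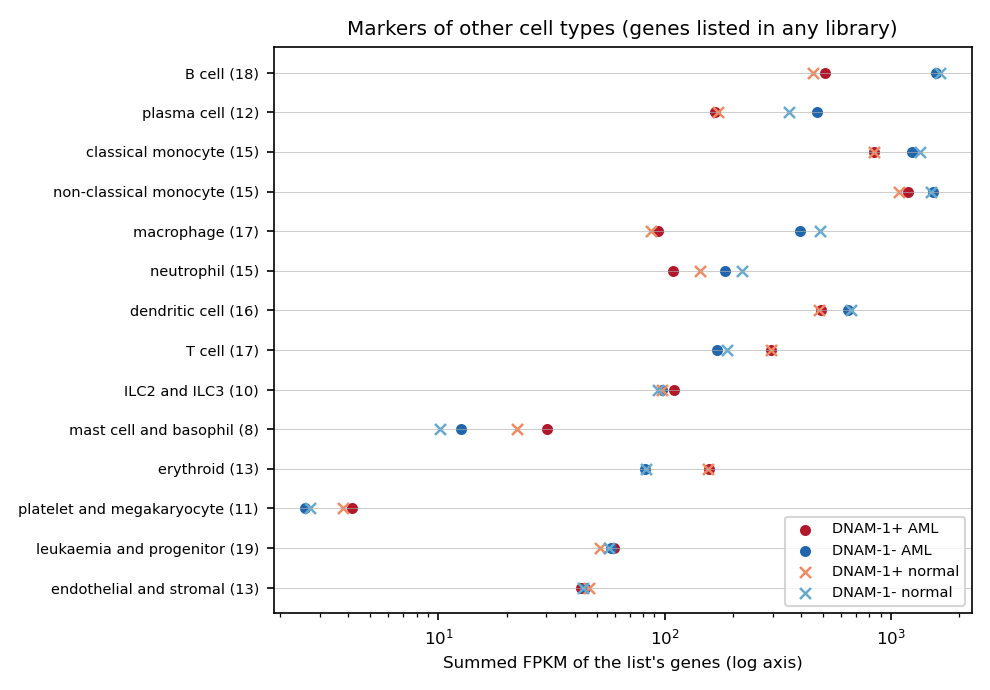
Summed FPKM (log axis) of the markers of 14 other cell types in each of the 4 libraries, with the number of genes listed in any library in brackets; filled points are AML, crosses normal, red and orange DNAM-1+, blue DNAM-1-. The B cell, plasma cell and macrophage sums are higher on the DNAM-1- side in AML and in normal spleen, the T cell sum is higher in DNAM-1+ cells, and leukaemia and progenitor sums of the AML libraries are 59.9 and 58.1.

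Leukaemia cells were checked in the same way, since the spleen carried them. The 19 leukaemia and progenitor markers included Hoxa9, a target of MLL-AF9, at 0.32 FPKM in DNAM-1+ and 0.18 FPKM in DNAM-1- cells, Meis1 at 1.56 and 1.44 FPKM and Mpo at 1.58 and 2.29 FPKM, and Mecom was listed at 0 in both. The largest members were Kit, Myb (12.4 and 10 FPKM) and Mef2c (7.68 and 19.8 FPKM), which lymphocytes also express. In normal spleen Hoxa9 was at 0.04 FPKM on both sides, Meis1 at 1.42 and 0.99 FPKM and Mpo at 0.25 and 0.26 FPKM. Ctsg, Prtn3 and Cd34 were likewise higher in each AML library than in its normal counterpart, at 1.68 FPKM or less. Myb and Cd33 were lower in both AML libraries. The part of leukaemia cells in these values was not tested. Mast cell and basophil markers summed to 30.1 and 12.6 FPKM, of which Kit made 25.3 and 9.78; Fcer1a, Il4, Mcpt4 and Tpsb2 were listed at 0 in both AML libraries. Among markers of other innate lymphoid cells, Il13, Il22 and Areg were listed at 0 in both. Endothelial and stromal genes other than Pecam1 (42.1 and 42.7 FPKM) were each below 1 FPKM, and platelet genes summed to 4.14 and 2.58 FPKM, with Pf4 listed at 0 in both.

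Pathway lists beyond surface receptors were mostly level. Lipid handling genes had 8 of 13 measured members at least 2-fold lower and a median of -1.50, among them Fabp4, Apoe, Apoc2, Pparg and Cd36 (1.17 and 7.66 FPKM; -2.00); over all 19 listed genes above 0 FPKM the median was -0.71. The lysosome list had 4 of 18 at least 2-fold lower (Lgmn, Cd68, Ctsh and Ctss), while Ctsw, the cathepsin of cytotoxic cells, was at 458 and 370.3 FPKM (0.31). Both lists moved with the macrophage and monocyte markers given above, whose part in them was not tested.

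Immediate early and AP-1 genes were more often lower, with 23 of 32 below 0 and a median of -0.14, but 1 past 2-fold, Klf4 (5.79 and 21 FPKM). Nr4a1 was at 72.5 and 127 FPKM (-0.80), Fos at 43.8 and 74.9 FPKM (-0.76) and Zfp36 at 180.2 and 284 FPKM (-0.65), while Nr4a3 was higher (28.7 and 17.1 FPKM; 0.72). Heat shock genes were level except the near-identical pair Hspa1a (1.67 and 7.87 FPKM; -1.73) and Hspa1b (3.97 and 10.3 FPKM; -1.18), whose reads can be exchanged. In normal spleen Hspa1b was at 35.3 and 119 FPKM, so the pair was low in both AML libraries.

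Interferon-stimulated genes had 0 of 31 past 2-fold higher and 4 past 2-fold lower (Oas2, Ly6a, Oasl2 and Isg20), with a median of -0.06. Isg15 was at 18.6 and 20 FPKM. The guanylate-binding proteins were slightly higher in DNAM-1+ cells in 7 of 8 genes, from Gbp9 (0.12) to Gbp6 (13.4 and 7.72 FPKM; 0.72), with Gbp5 at -0.11.

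Receptors for cytokines of NK activation were level as a group, with a median of 0.01 over 14 genes that was -0.0048 with the median ratio of all genes set to 0. Il12rb1 was the highest, at 22 and 12.2 FPKM (0.80), and Il18r1 was at 169 and 130.2 FPKM (0.37). Ifngr2 (6.59 and 21.1 FPKM; -1.54) and Il6ra (2.13 and 10.8 FPKM; -1.92) were at least 2-fold lower. TGF-beta receptor and SMAD genes lay between -0.27 and 0.15 apart from Tgfbi, a secreted target known from monocytes (4.90 and 22.8 FPKM; -2.01). Tgfbr2 was at 56.3 and 58.1 FPKM.

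Of the metabolic and growth genes few passed 2-fold. In glycolysis 0 of 17 did, with a median of 0.12. The furthest were Eno3, an enolase, at 9.87 and 19.3 FPKM (-0.90) and Ldha, lactate dehydrogenase, at 172 and 118 FPKM (0.53). Of 37 respiratory chain genes 32 were above 0, with a median of 0.15, the ratios lying between -0.45 (Ndufa5) and 0.37 (Ndufs7). Ribosomal protein genes (45, median 0.02) and MYC targets of ribosome biogenesis (27, median 0.04) had 0 genes past 2-fold, and Myc itself was at 42.6 and 46 FPKM (-0.11). Of 26 genes of fatty acid oxidation and cholesterol synthesis, Scd1, a fatty acid desaturase, was the only one past 2-fold (9.10 and 42 FPKM; -2.09). Apoptosis genes included 3 at least 2-fold lower, Bcl2a1a, Pmaip1 and Bmf (-1.93, -1.17 and -1.14), of which Bcl2a1a has close copies that can share reads, while Bcl2 was at 46.2 and 49.1 FPKM and Mcl1 at 124 and 153 FPKM (-0.30).

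**Figure D4:**
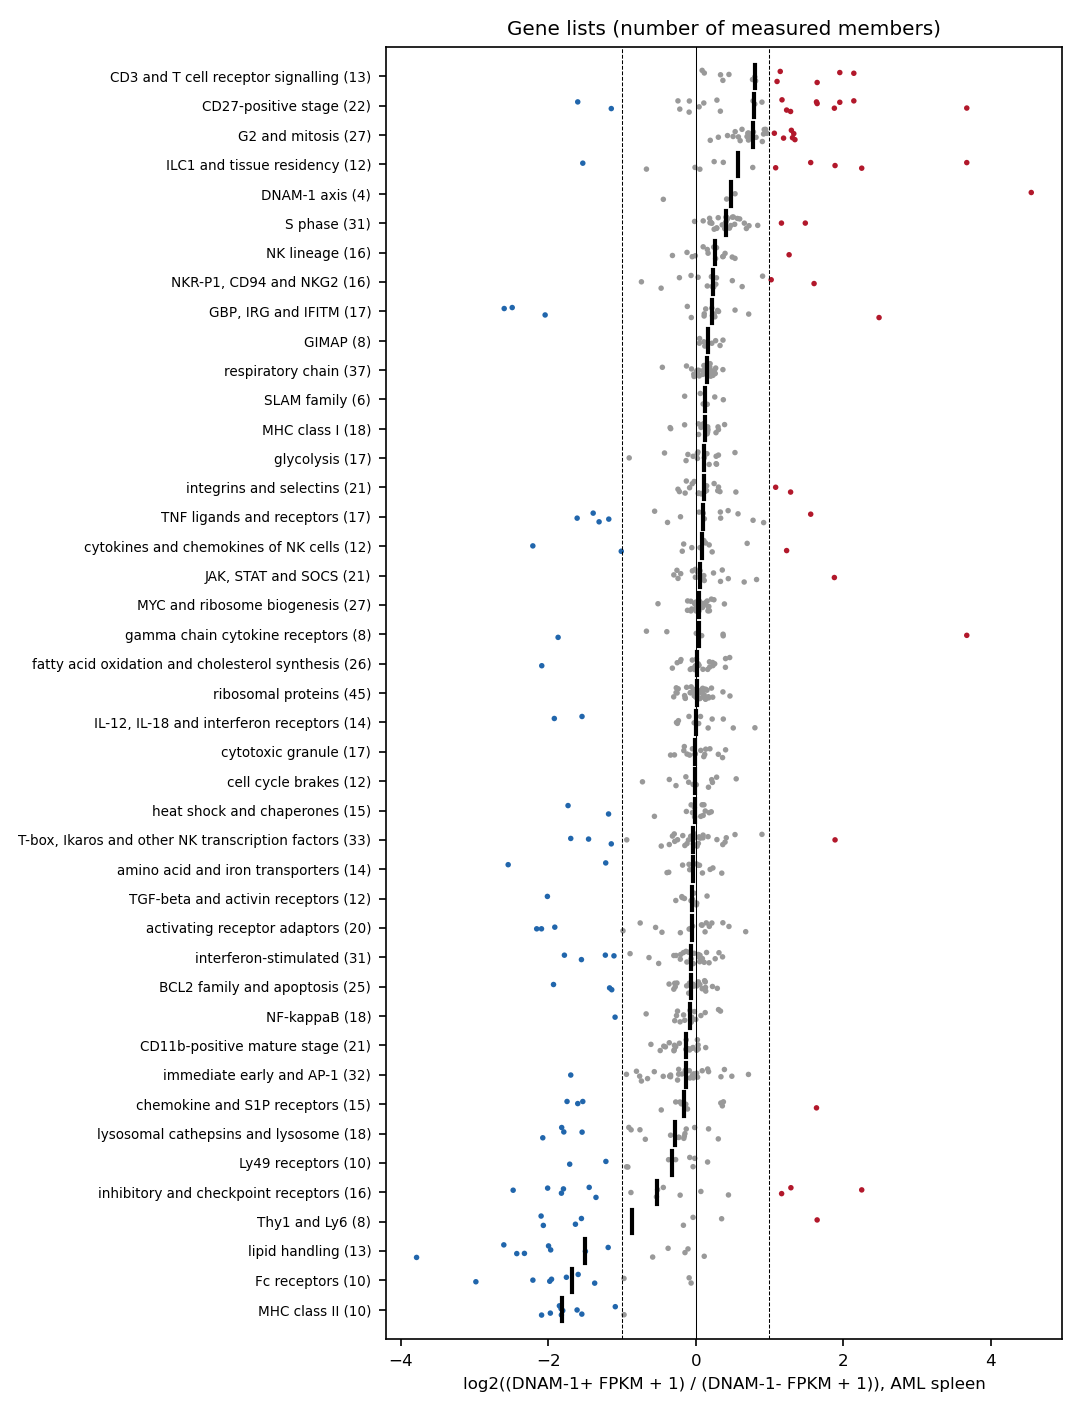
Log2 ratios, DNAM-1+ over DNAM-1- in AML spleen, of the measured genes of 43 lists (1 point a gene, jittered vertically), with the median of each list as a black bar and dashed lines at a 2-fold difference. The CD3, CD27-positive and mitosis lists have the highest medians (0.80, 0.79 and 0.78), the MHC class II list the lowest (-1.81), and most lists centre near 0.

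Normal spleen gave the same directions. Its libraries are separate from those of AML spleen, and 8544 genes met the same 5 FPKM limit there, where 93 (1.09%) were higher by 2-fold or more in DNAM-1+ cells and 323 (3.78%) lower. All 55 genes higher in AML spleen were also above 0 in normal spleen, and 44 met the full criterion there, which is 80% of the AML list and 47.3% of the normal list. Of the 259 lower genes all were below 0 in normal spleen and 241 met the criterion, 93.1% of the AML list and 74.6% of the normal list. The count past 2-fold in opposite directions was 0. Over the 8478 genes the ratios of the spleens correlated with Pearson's r = 0.897, a description across genes, which are not independent replicates.

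The sizes differed by group. For 213 of the 259 lower genes the gap was smaller in AML than in normal spleen, with medians of -1.73 and -2.01, and all 10 MHC class II genes had the smaller gap in AML spleen, where H2-Aa was at 127 and 454 FPKM against 84.1 and 474 FPKM in normal spleen. For 46 the gap was larger in AML spleen, among them Fabp4 (-3.79 against -3.05), Jchain (-3.43 against -2.93) and Krt80 (-3.09 against -2.84). In DNAM-1- cells Jchain was at 206 FPKM in AML and 103 FPKM in normal spleen. The B cell markers without Cd37 summed to 318 and 1354 FPKM in AML and to 286 and 1418 FPKM in normal spleen. Among the 55 higher genes the gap was larger in AML for 33 and smaller for 22, and 10 of the 22 were genes of the cell division group. The members whose gap was larger in AML spleen included all 5 of the ligand group, all 4 of the CD3 group, Lag3 (12.8 and 5.14 FPKM against 8.26 and 5.02 FPKM) and Kit (25.3 and 9.78 FPKM against 17.9 and 7.86 FPKM). In the CD3 group the ratios were nearly equal in both spleens for Cd3d and Cd3g, which differed by 0.01 and 0.03. Trat1 and Cd3e differed by 0.18 and 0.25. Each of these 4 differences was smaller than the gene's counting half-width in AML spleen. For Lag3 and Xcl1 it was the DNAM-1+ level that was higher in AML spleen, while the DNAM-1- levels were nearly equal. None of these differences between spleens was tested.

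**Figure D5:**
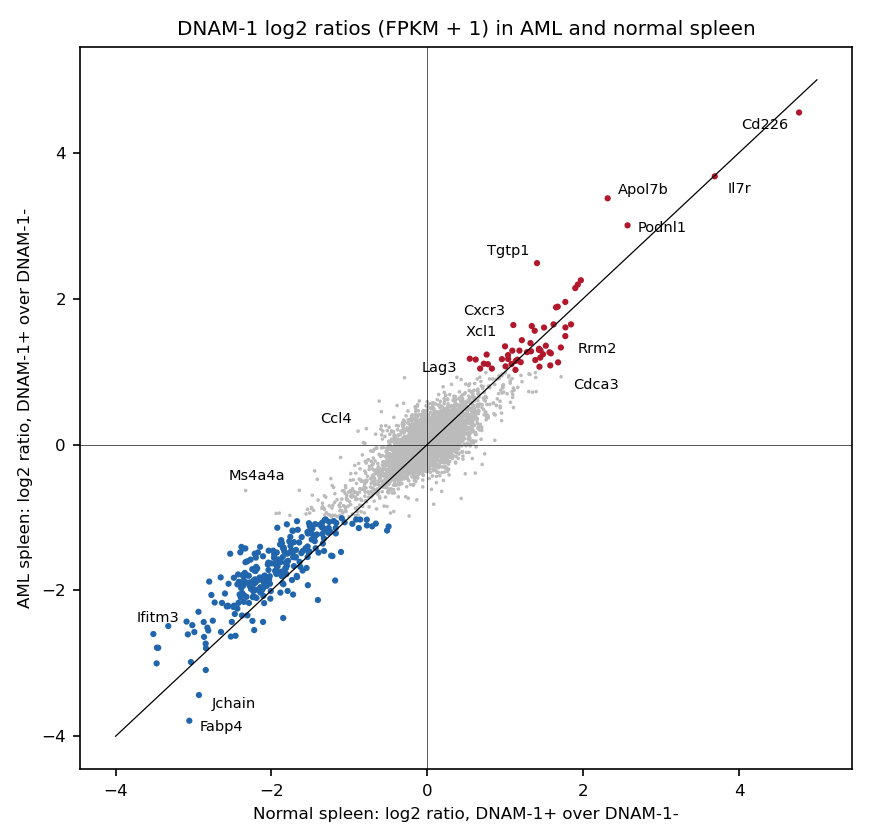
Log2 ratio, DNAM-1+ over DNAM-1-, of the 8478 genes in normal spleen (horizontal) and AML spleen (vertical), 1 point a gene, on FPKM + 1; red and blue genes are at least 2-fold in AML spleen and the diagonal marks equal ratios. Most blue points lie above the diagonal, where the gap is smaller in AML spleen, and no red or blue point lies on the far side of the vertical axis.

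The widest disagreements between the spleens were mostly in low genes. Ms4a4a, a membrane protein of macrophages, differed most, with a ratio of -0.63 in AML (4.18 and 7.02 FPKM) and -2.33 in normal spleen (1.63 and 12.2 FPKM). Tgtp1, Apol7b and the lysozyme gene Lyz1 also differed by over 1 (1.08, 1.06 and 1.03), in the same direction in both spleens. Bcl2a1d was at 10.3 and 13.5 FPKM in AML and 5.39 and 16.4 FPKM in normal spleen (-0.36 and -1.45).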

How the data were processed

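RNA-seq of sorted mouse splenic NK cells was analysed in 4 libraries, 1 in each of 4 groups, which were taken from the labels. The deposited values are FPKM per gene, computed by the authors; Bowtie2 2.2.5 and RSEM are named in the submitters' processing notes, and the genome build is not given in the sources used here. Each deposited table lists only genes above 0, so an absent gene was set to 0. NCBI Gene numbers were matched to the RefSeq GRCm38.p6 table, which gave a symbol to 17668 of 17723, of which 15844 were protein-coding. FPKM are not counts, and no replicate exists, so no test was run. Depth was estimated from microRNA values, 90.3% to 93.9% of which, up to 6 reads, fell within 0.1 of a whole read at the best depth. Counting intervals (95%) used GENCODE M21 transcript lengths, known for 8443 genes, with fewer than 1 fragment set to 1, and left out the added 1 FPKM. Members and lists were chosen with earlier results of these data known. Named genes were the sort and identity genes, every gene at least 2-fold higher and the 30 lowest, up to 6 per list plus those whose role is explained, 3 on each side of the limits, and the 10 highest in a library or furthest apart between spleens. Some genes that the rule names are not reported here. Other pseudocounts, FPKM limits, scalings and gene types were tried. The script was tested on simulated data. Python 3.11.15, numpy 2.4.6, pandas 2.3.3 and matplotlib 3.10.9 were used.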

Additional observations from a re-analysis of the deposited data

Results flagged for a closer look

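In 6 genes the ratio of DNAM-1+ over DNAM-1- cells had opposite signs in AML and normal spleen and differed by at least 1 on the log2 scale. With 1 library in each group, none of these differences was tested. Pradc1, a secreted glycoprotein gene, was at 6.53 and 2.99 FPKM in DNAM-1+ and DNAM-1- cells of AML spleen and 3.90 and 5 FPKM in normal spleen, an AML minus normal difference of 1.21. Slirp, which stabilises mitochondrial RNA, was at 15.8 and 10.1 FPKM in AML and 11.5 and 18.1 FPKM in normal spleen (1.21). Lenep was at 7.01 and 4.86 FPKM in AML and 4.56 and 7.36 FPKM in normal spleen (1.04). The chemokine gene Ccl4 was at 152 and 134 FPKM in AML and 80.95 and 151 FPKM in normal spleen (1.07). Fam174c was at 6.15 and 8.38 FPKM in AML and 7.98 and 4.86 FPKM in normal spleen (-1.01). Gtpbp8, a GTP-binding protein gene, was at 3 and 5.68 FPKM in AML and 5.72 and 3.97 FPKM in normal spleen (-1.18).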

How the results depend on the processing

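The count of 55 higher genes moved to 23 with a pseudocount of 5 FPKM, 93 with no FPKM limit or a limit of 1 FPKM, and 19 with a limit of 20 FPKM; the count of 259 lower genes moved to 152 with a pseudocount of 5 FPKM and 106 with a limit of 20 FPKM. The genes under the pseudocount of 5 and the limit of 20 were all among the 55 or 259. Of 290 named genes 0 changed sign under the other pseudocounts and scalings. Of 43 list medians, 1 did (receptors for IL-12, IL-18 and interferons), and 3 did without the FPKM limit (cytotoxic granule, 0.03; heat shock, 0.03; fatty acid oxidation and cholesterol synthesis, -0.0041); none of these was past 2-fold. With a pseudocount of 5 FPKM, 86 genes and 2 medians moved, and with 0.1 FPKM 18 genes. Without the FPKM limit, an alternative chosen after seeing the data, the medians of lipid handling (-0.71) and of Thy1 and Ly6 (-0.17) moved. No paired analysis was possible because each group has 1 library, and for the same reason no replicate could be left out. Depth limits genes near 5 FPKM, and the spread between mice is unknown.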

Other observations

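Genes that do not code for protein were outside the comparison. At 5 FPKM or more in the higher AML library there were 190 long non-coding RNA genes, with 2 past 2-fold higher and 2 past 2-fold lower. Lockd, a long non-coding RNA gene beside Cdkn1b, was at 9.50 and 3.81 FPKM (log2 ratio 1.13) and at 12.7 and 5.48 FPKM in normal spleen (1.08). Ggnbp2os was at 7.46 and 2.78 FPKM (1.16) in AML and 4.31 and 3.39 FPKM (0.27) in normal spleen. The transcribed pseudogene Ubb-ps, a near copy of a ubiquitin gene that can share its reads, was listed at 0 in DNAM-1+ cells and at 15.5 FPKM in DNAM-1- cells of AML spleen, and at 18.9 and 7.36 FPKM in normal spleen. Of 59 microRNA genes 16 passed 2-fold upwards and 11 downwards; many of these were listed at 0 on one side.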
